A study of Mus musculus with 70 samples.

Results

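The 10 genes described here present peptides on MHC class I molecules, and their rows were taken by identifier from a table of 52636 genes counted in sorted mouse blood leukocytes. They are the classical heavy chains H2-K1 and H2-D1, the nonclassical heavy chains H2-T23 and H2-M3, the light chain B2m, the peptide transporter subunits Tap1 and Tap2, the loading chaperone Tapbp, the class I transactivator Nlrc5 and the peptide-trimming aminopeptidase Erap1. All 10 were counted in all 68 libraries used, and all 10 passed the filter on low counts in every fit.

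C57BL/6J mice aged 7 to 8 weeks were exposed to CD-1 aggressors for 10 days, a model called chronic social defeat stress (CSDS). A social interaction test then divided them into stress-susceptible (SUS) and resilient (RES) mice, and unstressed mice served as controls (CON). Antibodies were used to sort T cells, B cells and monocytes with high or low Ly6C from trunk blood after lysis of red cells, whereas the sample labels name brain as the source. Each of the 12 groups held 6 libraries, except for 4 of Ly6C-low monocytes from CON mice and 5 each of B cells and T cells from RES mice. No label says which libraries came from 1 mouse, so the p-values measure the spread between these libraries only.

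Total counts were 19769835 to 67038231 a library, and mitochondrial genes took 3.66% to 18.4% of them. Cell type markers fitted the labels: in CON mice Ccr2 averaged 2052 CPM (counts scaled to library size) in Ly6C-high monocytes, Ace 2653 in Ly6C-low monocytes, Cd79a 1539 in B cells and Cd3e 443 in T cells. The neutrophil marker Ly6g stayed at 1.13 CPM or less in every library. With Retnlg, Cxcr2, Mmp9 and Csf3r it summed to 361 to 604 CPM in Ly6C-high and 218 to 285 CPM in Ly6C-low monocytes. In lymphocytes this neutrophil sum was at most 14.1 CPM, and its part in the results was not tested. One library labelled as B cells and 1 labelled as T cells, both from RES mice, carried markers of the other lymphocyte and were left out. Natural killer markers summed to 245 to 1345 CPM in Ly6C-low monocytes and to no more than 118 CPM in the other cell types, and their part in the results was not tested.

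Class I molecules carry peptides cut from the cell's own proteins to the surface, where CD8 T cells read them and natural killer cells sense their absence. Proteasomes cut the peptides, TAP pumps them into the endoplasmic reticulum, tapasin holds the empty heavy chain and light chain beside TAP, and ERAP1 trims what is too long. Nearly all nucleated cells make these proteins, interferons raise them, and NLRC5 acts with RFX, CREB and NF-Y factors at the promoters of many of the genes.

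Of the 10 genes, 7 lie in the MHC on chromosome 17. In mm10 coordinates these are H2-K1 (chr17:33996017-34000347, minus strand), Tapbp (chr17:33915899-33929292), Tap1 (chr17:34187553-34197225), Tap2 (chr17:34203527-34216321), H2-D1 (chr17:35262730-35267499), H2-T23 (chr17:36029773-36032855, minus strand) and H2-M3 (chr17:37270220-37274484). B2m lies at chr2:122147686-122153083, Nlrc5 at chr8:94434356-94527272 and Erap1 at chr13:74639568-74693201. Values count reads over all exons of a gene. Reads of H2-K1, H2-D1 and the H2-Q genes are nearly identical in places and may be split among them. Patl2 overlaps the whole of B2m on the other strand, and an antisense gene overlaps all of H2-T23. Reads of these pairs may be shared where strand was not used. Zbtb22 shares 3422 bases with Tapbp on the same strand, so that their reads may be shared whether or not strand was used.

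Promoter sequence was available for 8 of the 10 genes, all but Tap2 and Nlrc5, and is shown where the heavy chains and B2m share it. The motifs were searched on both strands in the 200 bases before each RefSeq start (GRCm38.p6). CCAAT, the NF-Y box, was in 6 of the 8 windows and in 29.9% of 27025 promoters. TGACG, the core of a CREB site, was in 5 windows and 15.8% of promoters, GAANNGAAA, an interferon response core, in 3 windows and 5.02%, and GGGNNTTCC, an NF-kB core, in 2 windows and 4.06%. In H2-K1, H2-D1, H2-M3 and B2m, TGACG was followed by ATTGG, which is CCAAT read on the other strand, with 25 bases between their first letters. This spacing was chosen after it was seen, and 13 promoters (0.0481%) hold it. The stretches are shown 5′ to 3′ on the gene's strand, with the motifs in capitals.
H2-K1: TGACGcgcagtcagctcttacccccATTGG
H2-D1: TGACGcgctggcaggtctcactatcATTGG
H2-M3: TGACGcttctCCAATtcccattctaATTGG
B2m: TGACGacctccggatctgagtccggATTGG
They lie at chr17:34000359-34000388, chr17:35262993-35263022, chr17:37270188-37270217 and chr2:122147609-122147638. H2-D1 shared 23 of 30 letters with H2-K1, H2-M3 shared 17 and B2m 13. Only the classical heavy chains H2-K1 and H2-D1 also held the NF-kB core and the interferon core, read here on the other strand, in a second stretch that differed at 1 of 30 letters.
H2-K1: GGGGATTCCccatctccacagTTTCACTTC
H2-D1: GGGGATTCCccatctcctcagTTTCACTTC
These lie at chr17:34000429-34000458 and chr17:35262923-35262952, the latter inside the GENCODE model of H2-D1, which starts upstream of the RefSeq start. A match describes letters and does not show binding.

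**Figure D1:**
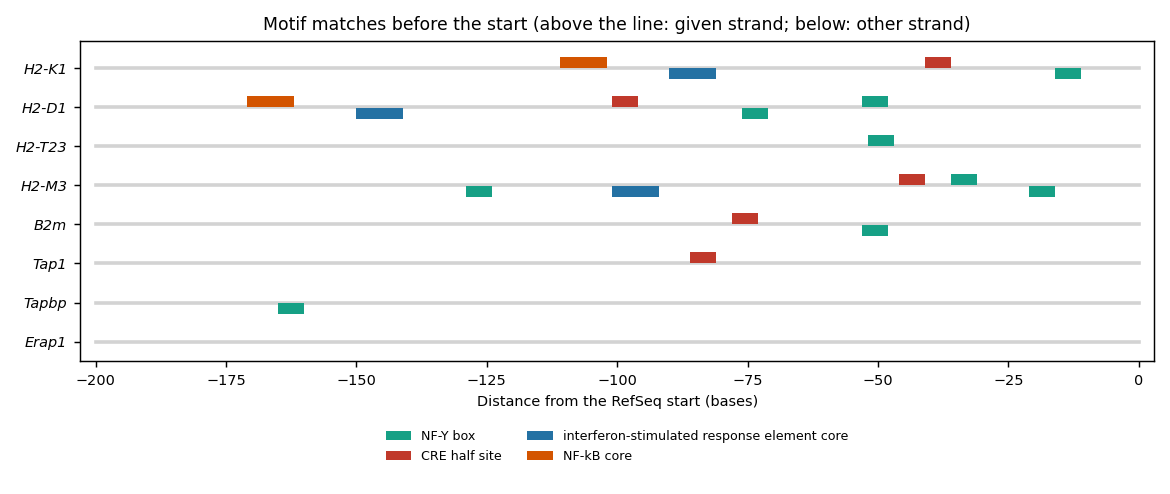
Motif matches in the 200 bases before the RefSeq start of the 8 genes with a window. The horizontal axis is the distance from the start in bases, and each box is 1 match, above the line on the gene's strand and below it on the other, coloured by motif. The CREB core and the NF-Y box stand 25 bases apart in H2-K1, H2-D1, H2-M3 and B2m, and Erap1 has no match.

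Which cell types express the genes most was read in CON mice. On the scale of CPM per kilobase of exon, which allows genes to be compared, levels in Ly6C-high monocytes ran from 1107 ± 168 for B2m (SD, n = 6) through 570 ± 67.7 for H2-D1 and 221 ± 19.9 for H2-K1 to 9.65 ± 1.12 for Erap1. Tapbp stood at 90.8 CPM per kilobase, H2-T23 at 69.9, Tap1 at 29.9, H2-M3 at 19.4, Nlrc5 at 16.0 and Tap2 at 11.0. In this cell type B2m and the classical heavy chains were thus the most abundant, and the transporter subunit Tap2 and the trimming enzyme Erap1 the least. In B cells the lowest were Erap1 at 5.93 and Nlrc5 at 7.28, with Tap2 at 19.7.

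**Figure D2:**
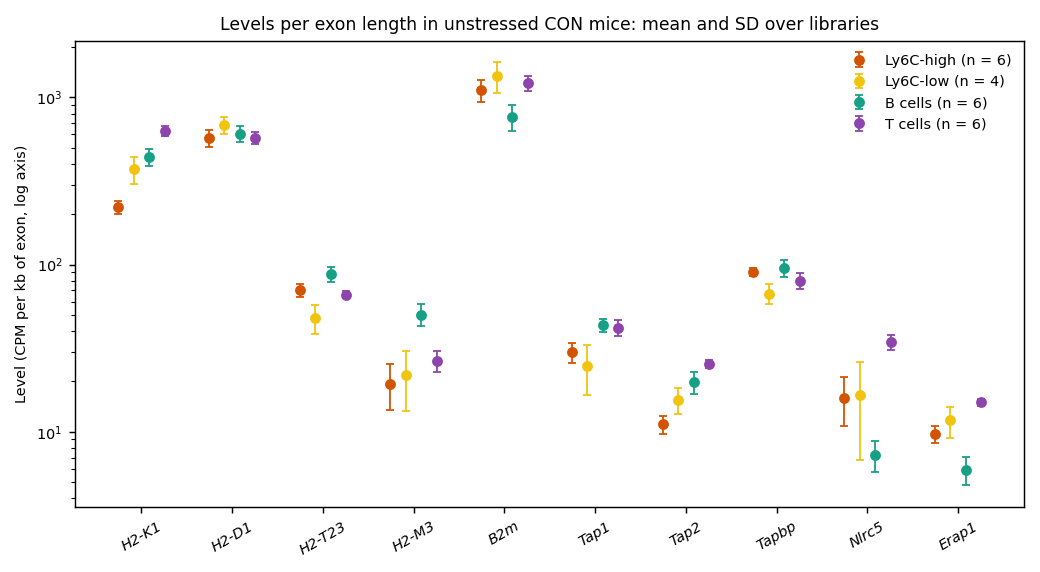
Level of each of the 10 genes in CON mice by cell type, in CPM per kilobase of exon on a log axis. Points are group means and bars are SD over 6 libraries (4 for Ly6C-low monocytes). B2m and H2-D1 stand at the top in Ly6C-high monocytes, at 1107 and 570, and the cell types of Nlrc5 are the farthest apart.

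No single cell type led all genes. H2-K1, H2-D1 and their partners were ordered differently, and T cells had the highest mean for H2-K1, Tap2, Nlrc5 and Erap1, B cells for H2-T23, H2-M3, Tap1 and Tapbp, and Ly6C-low monocytes for H2-D1 and B2m. In edgeR's quasi-likelihood test over CON libraries, a gene was called at a Benjamini-Hochberg adjusted p under 0.05 with an absolute log2 fold change above 1. Between Ly6C-high and Ly6C-low monocytes this called 0 of 10 members, against 11.2% of all genes. DESeq2 called 0 as well, an adjusted p under 0.05 alone held for 4 (19.3% of genes), and an unadjusted p under 0.05 for 7 (30.0%). Both conditions called 2 members between Ly6C-high monocytes and B cells (33.1% of genes) and 3 between Ly6C-high monocytes and T cells (32.8%). They called 3 between Ly6C-low monocytes and B cells (30.3%), 1 between Ly6C-low monocytes and T cells (28.5%) and 2 between B and T cells (20.2%). At the adjusted p alone the counts in these 5 comparisons were 8 (47.0% of genes), 5 (45.7%), 7 (42.5%), 7 (39.4%) and 7 (31.4%).

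Nlrc5, the transactivator, differed most between cell types. Its levels were 259, 283 and 340 CPM (lowest, median and highest) in T cells of CON mice and 44.9, 64.5 and 80.6 in B cells. The groups did not overlap, and Nlrc5 was lower in B than in T cells by a log2 fold change of -2.27 (SE 0.26, adjusted p = 4.36e-07 in edgeR). In Ly6C-high monocytes it stood at 108, 116 and 220 CPM, above B cells by 1.17 on the log2 scale (adjusted p = 0.000584) and below T cells by 1.10 (log2 fold change -1.10, adjusted p = 0.000968). Without the CON library with 220 CPM, the log2 fold change over B cells was 0.98 and no longer above 1. The 4 Ly6C-low libraries held 74.6, 78.8, 156 and 251 CPM, and Nlrc5 did not differ between the monocyte types beyond this spread (log2 fold change -0.05, adjusted p = 0.952). Against T cells the log2 fold change was -1.05 (adjusted p = 0.00543) but -0.84 and -0.87 without the libraries at 74.6 and 78.8 CPM. Against B cells it was 1.22 (0.00101), and 0.79 without the library at 251 CPM.

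H2-K1 and H2-D1, the classical heavy chains, had different orders. H2-K1 ranged over 608.5, 625.4 and 764.3 CPM in Ly6C-high monocytes and 1697, 1827 and 2021 CPM in T cells, with no overlap. Its mean in T cells was 2.84 times that in Ly6C-high monocytes (log2 fold change -1.505 for Ly6C-high monocytes, SE 0.10, adjusted p = 6.29e-13 in edgeR). B cells (1295 ± 147 CPM) and Ly6C-low monocytes (1097 ± 204 CPM, n = 4) lay between and did not differ beyond their spread (adjusted p = 0.156). H2-D1 had means of 1470 to 1767 CPM in the 4 cell types, a ratio of 1.20 between the highest and the lowest. Ly6C-high monocytes, B cells and T cells did not differ in H2-D1 (adjusted p of 0.662 to 0.981), and only Ly6C-low monocytes against T cells passed the adjusted p (log2 fold change 0.27, 0.0318). This was lost without any 1 of 7 libraries (CON replicates 4 or 5 of Ly6C-high monocytes, 3 or 4 of Ly6C-low monocytes, and 2, 4 or 5 of T cells; adjusted p of 0.0625 to 0.156). Ly6C-high against Ly6C-low monocytes (log2 fold change -0.27, adjusted p = 0.0522) passed without Ly6C-low replicate 2 (0.0257) or B cell replicate 1 (0.0433).

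H2-M3, which presents formylated peptides, stood at 55.5, 73.2 and 87.0 CPM in B cells and 15.1, 29.1 and 39.4 in Ly6C-high monocytes (log2 fold change -1.34, adjusted p = 1.98e-06 in edgeR). B cells exceeded all other cell types in H2-M3, and the remaining 3 did not differ at an adjusted p of 0.05 (0.0565 to 0.635). Ly6C-high monocytes passed as lower than T cells without CON replicates 3 or 5 of Ly6C-high monocytes (0.0181 and 0.0403). They also passed without replicates 1 or 2 of Ly6C-low monocytes (0.0445 and 0.0308), without T cell replicate 3 (0.0408) and in a fit of the 2 groups (0.0491). Ly6C-low monocytes passed as lower than T cells without their replicate 2 (0.0392). H2-T23, whose product Qa-1 shows signal peptides of other heavy chains to natural killer cells, was lowest in Ly6C-low monocytes (138 ± 26.8 CPM, n = 4) and highest in B cells (254 ± 26.2 CPM). Neighbours in its order were Ly6C-high monocytes and T cells, at 202 and 191 CPM, which did not differ (adjusted p = 0.523).

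B2m, the shared light chain, was lowest in B cells, with 523, 652 and 825 CPM. It was below Ly6C-low monocytes, T cells and Ly6C-high monocytes there, with log2 differences of 0.86, 0.71 and 0.57 in size (adjusted p of 0.000365 or less). B2m in those 3 cell types, with means of 952 to 1159 CPM, did not differ (adjusted p of 0.147 to 0.416). Erap1 had the same order as Nlrc5, from 109 ± 4.79 CPM in T cells through 84.98 and 70.3 CPM in Ly6C-low and Ly6C-high monocytes to 43.2 ± 8.44 CPM in B cells (B against T cells, log2 fold change -1.38, adjusted p = 6.87e-10).

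Of the transporter subunits, Tap2 stood at 88.7, 97.3 and 102 CPM in T cells and 35.6, 41.8 and 48.5 CPM in Ly6C-high monocytes, with no overlap (log2 fold change -1.21, adjusted p = 1.57e-09 in edgeR). Tap1 had means of 238 and 229 CPM in B and T cells, which did not differ (adjusted p = 0.949). Its means of 164 and 136 CPM in Ly6C-high and Ly6C-low monocytes did not pass either (0.225). Without Ly6C-low CON replicate 4, Tap1 was higher in Ly6C-high monocytes (log2 fold change 0.51, adjusted p = 0.00625 in edgeR). The same difference was 0.50 in SUS mice (0.145) and 0.73 in RES mice (0.000384). Tapbp had a narrow range, with means of 243 to 345 CPM. It was lower in Ly6C-low than in Ly6C-high monocytes (243 against 330 CPM, adjusted p = 0.00343).

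Genes of like pattern were sought for H2-K1 and Nlrc5 over the 12 group means of log2 CPM. Among 14769 genes, those closest to H2-K1 were Evl, Ctla2a, Mctp2, Mcm4 and B4galt7 (Pearson r of 0.974 to 0.992), and those closest to Nlrc5 were Rab11fip4, Atp11b, Gtf2ird1, Espn and Cdc14b (0.981 to 0.993). With 12 points that share 4 cell types, 248 genes had an r over 0.9 with H2-K1 and 180 with Nlrc5, so that such values are common and carry no p.

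Whether CSDS moved the genes was asked within each cell type. Called at both conditions were 0 of 10 members in Ly6C-high monocytes of SUS against CON mice, beside 3.45% of all genes. H2-D1 alone passed the adjusted p (12.6% of genes did), and 5 members had an unadjusted p under 0.05 (26.5%). DESeq2 also called 0 at both conditions. Of the 10 members, 8 had a higher level in SUS mice, with a median log2 fold change of 0.40 against -0.05 for all genes. In bulk RNA, a different mix of cells in the sort and a different level per cell cannot be told apart.

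**Figure D3:**
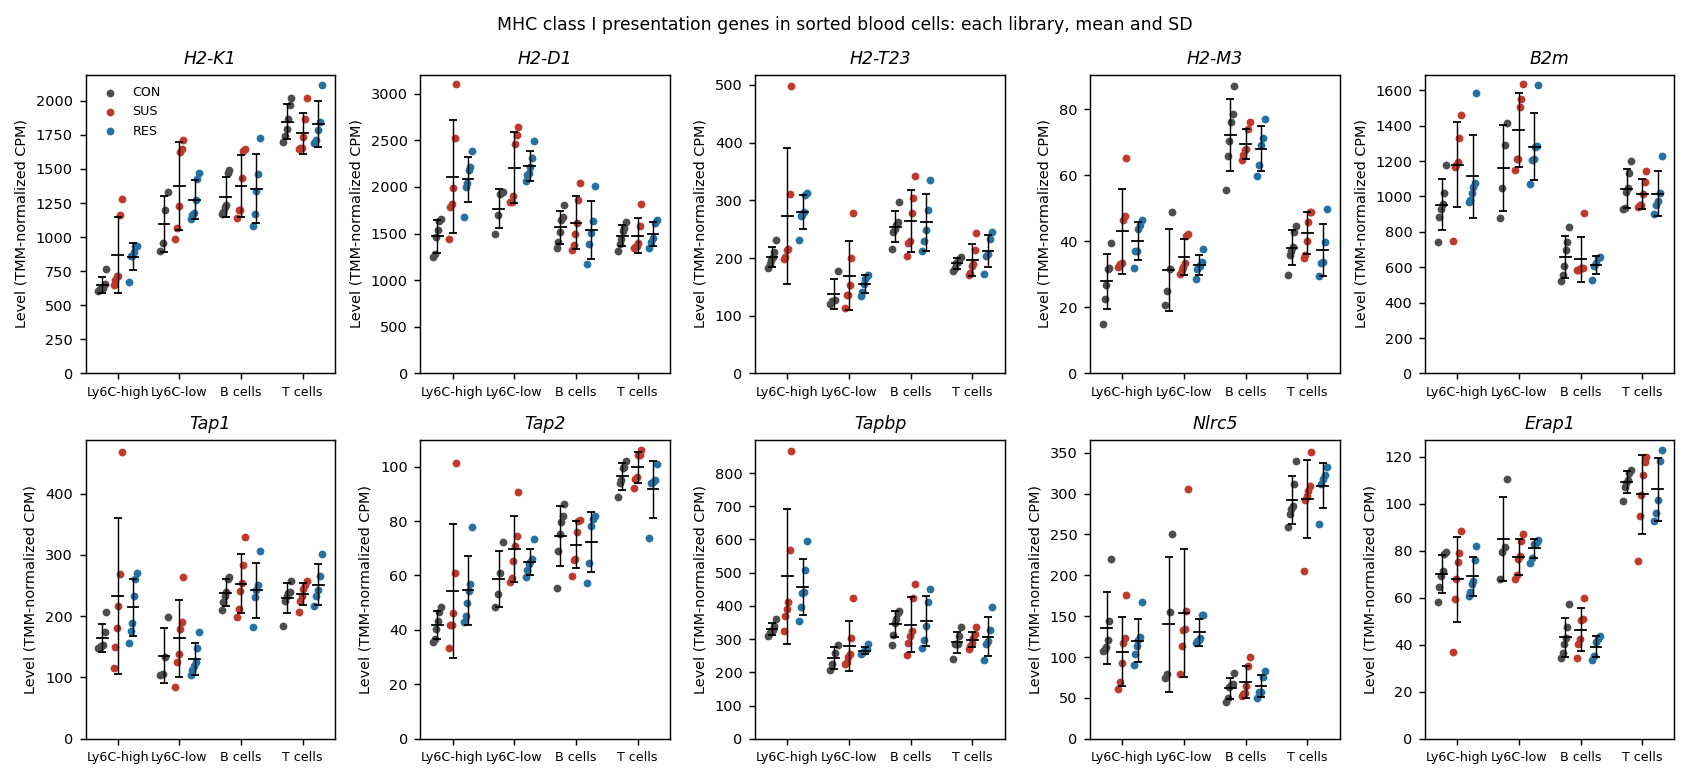
Level of each of the 10 genes in CPM on a linear axis from 0, by cell type and by CON, SUS and RES mice. Each point is 1 library, and the black lines are the group mean and SD. In Ly6C-high monocytes the CON libraries of H2-D1 sit between 1248 and 1654 CPM and all 6 RES libraries above them.

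H2-D1 stood at 1248, 1501 and 1654 CPM (lowest, median and highest) in CON Ly6C-high monocytes, 1441, 1901 and 3107 in SUS and 1672, 2110 and 2382 in RES mice. Of the 6 SUS libraries 5 lay above every CON library, and the sixth lay within the CON range. The log2 fold change of SUS over CON was 0.49 (SE 0.15, adjusted p = 0.0372 in edgeR), a rise within 2-fold. Leaving out each of the 18 Ly6C-high libraries in turn gave 0.31 to 0.56 and kept the adjusted p under 0.05 in 12 of 18 cases. It was lost without CON replicates 1, 3, 4 or 6 (adjusted p of 0.0601 to 0.0940) and without SUS replicate 4 (0.0841) or 5 (0.31, 0.118).

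The other heavy chains did not pass with all libraries in the fit. H2-K1 stood at 608.5, 625.4 and 764.3 CPM in CON, 648, 714 and 1280 in SUS and 672, 874 and 935 in RES mice, with a log2 fold change of 0.39 (SE 0.16, adjusted p = 0.117) for SUS over CON. Only 2 of 6 SUS libraries exceeded every CON library, but 5 of 6 RES libraries did. H2-M3 stood at 15.1, 29.1 and 39.4 CPM in CON and 32.2, 39.9 and 65.4 in SUS mice, with an overlap of the groups and a log2 fold change of 0.61 (SE 0.21, adjusted p = 0.0556). In edgeR H2-M3 passed without CON replicate 3 (adjusted p = 0.0376) and without SUS replicates 2, 3 or 6 (0.04137 to 0.04305). It did not pass when any other library was left out. H2-T23 had a log2 fold change of 0.41 (adjusted p = 0.156), and its SUS libraries ranged from 198 to 499 CPM.

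Loading genes showed the same spread among SUS libraries. Tapbp, which bridges TAP and the heavy chain, stood at 310, 325 and 362 CPM in CON, 325, 401 and 867 in SUS and 355, 440 and 594 in RES mice. The SUS libraries thus spanned a range over 10 times as wide as the CON libraries, and the log2 fold change was 0.54 (SE 0.19, adjusted p = 0.0578). Tapbp passed in edgeR without SUS replicates 2 (adjusted p = 0.0252), 3 (0.0475) or 6 (0.0364), and not when any other library was left out. Tap1 ranged from 115 to 468 CPM in SUS mice (0.49, SE 0.24, adjusted p = 0.191) and Tap2 from 33.5 to 101 (0.35, adjusted p = 0.319), and both overlapped CON. B2m had a log2 fold change of 0.28 (adjusted p = 0.265), from 952 ± 144 to 1179 ± 240 CPM.

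Nlrc5 and Erap1 had lower means in SUS mice, and the sign of Erap1 turned without SUS replicate 5. Nlrc5 stood at 108, 116 and 220 CPM in CON and 60.5, 105 and 175 in SUS mice, with overlap (log2 fold change -0.37, SE 0.23, adjusted p = 0.315). Erap1 was at 70.3 ± 8.12 CPM in CON and 67.9 ± 18.1 in SUS mice (-0.09, adjusted p = 0.769). Neither difference passed the test.

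**Figure D4:**
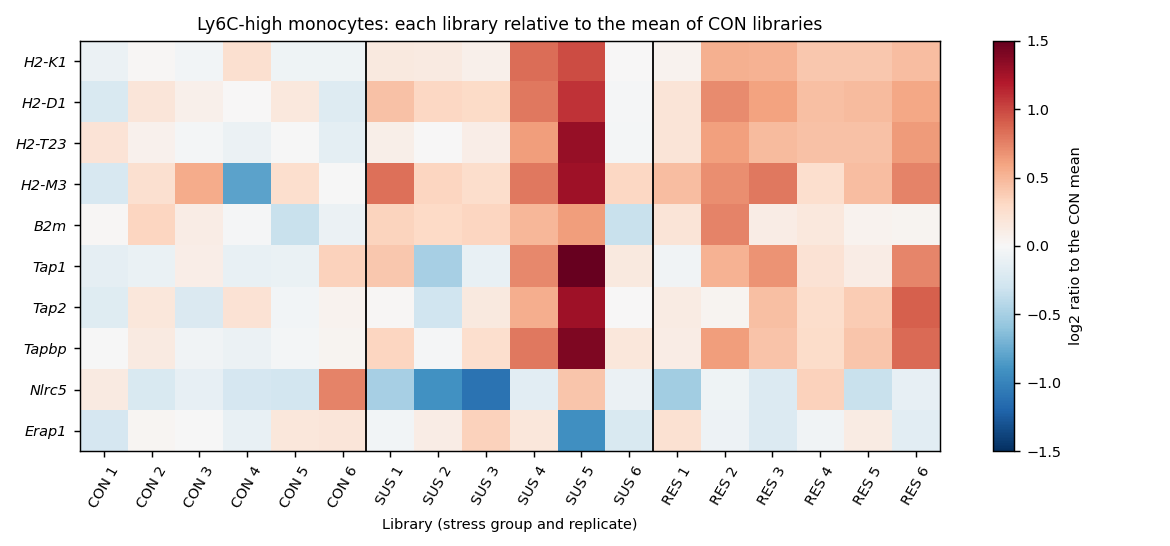
Heat map of the 18 Ly6C-high monocyte libraries (columns, by stress group and replicate) and the 10 genes (rows). Colour is the log2 ratio of a library to the mean of the CON libraries, red above and blue below. SUS replicate 5 is the highest SUS library in 9 of the 10 genes and the lowest in Erap1.

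One library weighed on these values. SUS replicate 5 was the highest of the 6 SUS libraries in 9 of 10 members and the lowest in Erap1. Without it the log2 fold change of SUS over CON was 0.20 for H2-K1, 0.31 for H2-D1, 0.11 for H2-T23, 0.12 for Tap1, 0.03 for Tap2 and 0.26 for Tapbp. It was 0.01 for Erap1, which turned sign, and -0.61 for Nlrc5, which moved away from 0. The median of the 10 was 0.14, beside -0.05 for all 17456 genes tested. No member had an adjusted p under 0.05 (0.0627 to 0.976), while 956 of all genes passed as higher and 462 as lower. SUS replicate 5 held red cell markers at 8988 CPM and platelet markers at 50.5 CPM, the highest sums of its cell type.

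Red cell markers moved with stress in the sort. All 6 passed both conditions as higher in SUS Ly6C-high monocytes and 1 of 6 in RES ones, and their sums were 343 to 1215 CPM in CON, 1097 to 8988 in SUS and 1077 to 4348 in RES mice. With the mean log2 level of these markers as a covariate, the log2 fold change of SUS over CON was 0.05 for H2-D1 (adjusted p = 0.990), -0.02 for H2-K1, -0.19 for H2-T23, -0.04 for B2m, -0.27 for Tap1, -0.29 for Tap2, -0.08 for Tapbp and -0.70 for Nlrc5 (0.617). H2-M3 and Erap1 stood at 0.20 and 0.17. Thus 3 of 10 members were higher and 7 lower, with a median of -0.06 in place of 0.40 and no member past the adjusted p. Over all 16955 genes of this covariate fit, 1 passed as higher and 1 as lower, and the median was 0.07. The marker level and the stress group varied together, so their parts in H2-D1 cannot be told apart. In the other cell types the red cell sums also had higher medians in SUS than in CON mice. They were 1064 against 591 CPM in Ly6C-low monocytes, beside a median member difference of 0.24, 5566 against 2781 CPM in B cells, beside 0.06, and 2384 against 1479 CPM in T cells, beside 0.01. Dendritic cell markers summed to 121 to 155 CPM in CON and 30.4 to 97.1 CPM in SUS Ly6C-high monocytes, and their part was not tested.

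RES mice were compared with CON mice in the same way. Called at both conditions were 0 of 10 members in Ly6C-high monocytes of RES against CON mice in edgeR and in DESeq2, beside 0.997% of all genes, and none passed the adjusted p alone (4.97%). At an unadjusted p under 0.05 there were 5 members (21.2% of genes), and the median log2 fold change was 0.38 against -0.03 for all genes. H2-D1 had all 6 RES libraries above all 6 CON libraries, as did 2.85% of genes, with a log2 fold change of 0.49 (SE 0.15, adjusted p = 0.0643). It passed in a fit of these 2 groups alone (0.46, adjusted p = 0.00827), as did H2-T23 (0.43, 0.0116), Tapbp (0.43, 0.0201) and H2-K1 (0.36, 0.0280). SUS replicate 5 shares no value with this contrast but enters its estimate of the spread, and without it 3 members passed. They were H2-D1 (0.47, adjusted p = 0.0114 in edgeR), H2-T23 (0.43, 0.0133) and Tapbp (0.43, 0.0243). Of all 17456 genes tested without SUS replicate 5, 1078 passed as higher and 763 as lower. With the red cell covariate the log2 fold change of RES over CON was 0.10 for H2-D1, 0.03 for H2-K1, -0.02 for H2-T23 and -0.05 for Tapbp, with 4 of 10 members higher, a median of -0.04 and an adjusted p of 0.998 for each. In that covariate fit 0 of all 16955 genes passed, and their median was 0.08. The SUS and RES values share their CON libraries and are not independent.

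SUS and RES mice themselves did not separate. In Ly6C-high monocytes 0 of 10 members were called between them in edgeR and DESeq2 (0% of genes) and 0 had an unadjusted p under 0.05 (3.66%). The log2 differences lay between -0.18 for Nlrc5 and 0.11 for Tap1, with a median of 0.00 and standard errors of 0.15 to 0.24.

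**Figure D5:**
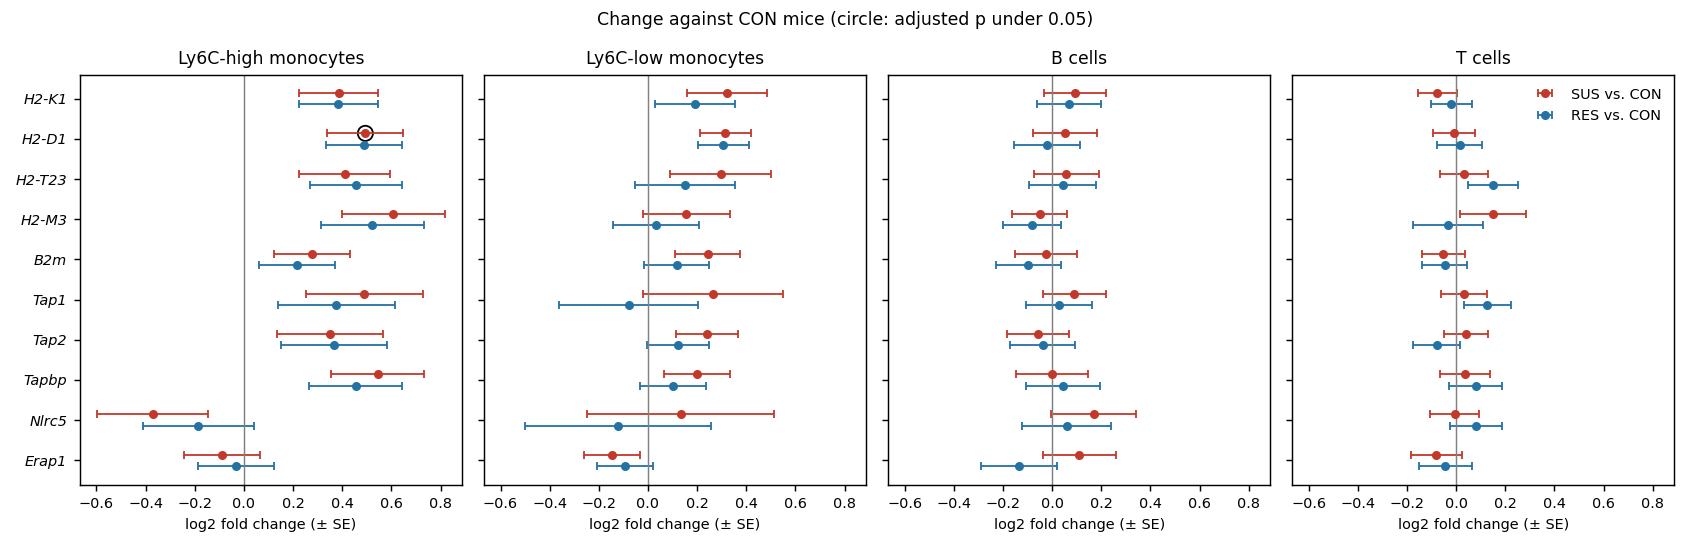
Log2 fold change of each gene for SUS and RES over CON mice in the 4 cell types. Bars are 1 standard error from edgeR, and a circle marks an adjusted p under 0.05. H2-D1 in SUS Ly6C-high monocytes, at 0.49, is the 1 circled value, and the values in B and T cells lie between -0.13 and 0.17.

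In Ly6C-low monocytes 0 of 10 members were called in SUS against CON mice (0.0871% of genes), with 1 at an unadjusted p under 0.05 (9.51%). RES against CON mice gave 0 called (0.0154%) and 1 at an unadjusted p (9.67%), and SUS against RES mice 0 (0%) and 0 (3.79%), and DESeq2 called 0 in all 3. The gene at an unadjusted p was H2-D1 both times. Its 4 CON libraries held 1497, 1698, 1925 and 1949 CPM, and its RES libraries 2058, 2177 and 2492 (lowest, median and highest), with no overlap (1.69% of genes). SUS libraries of H2-D1 held 1840, 2182 and 2644 CPM and overlapped CON. The log2 fold change was 0.31 in both contrasts (SE 0.10, adjusted p of 0.258 and 0.297 in edgeR). Of the 10 members, 9 had higher means in SUS than in CON mice (median log2 fold change 0.24) and 7 in RES mice (0.11), against -0.01 for all genes in each. SUS replicate 5 of this cell type was the highest of its group in all 10 members, and red cell markers were highest there among SUS libraries, at 2691 CPM.

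B and T cells showed next to no difference. In B cells 0 members were called in SUS against CON (0.00568% of genes), RES against CON (0%) and SUS against RES mice (0%) by edgeR or DESeq2, and 0 had an unadjusted p under 0.05 in any of them (3.42%, 3.18% and 1.36%). In T cells the 3 comparisons called 0 (0.0265%, 0% and 0%), and 0 members had an unadjusted p under 0.05 (4.80%, 4.11% and 2.39%). The largest log2 difference from CON mice was 0.17 for Nlrc5 in B cells (SE 0.17) and 0.15 for H2-M3 and H2-T23 in T cells (SE 0.14 and 0.10). H2-K1 was at 1848 ± 128 CPM in CON, 1762 ± 152 in SUS and 1830 ± 171 in RES T cells, values that overlap throughout.

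Whether the SUS difference itself varied by cell type was tested with interaction terms over all cell types. Against Ly6C-low monocytes 0 of 10 members passed the adjusted p (0.363% of genes), as against B cells (6.18%) and T cells (3.22%). At an unadjusted p under 0.05 the counts were 0 (14.2% of genes), 4 (21.2%) and 4 (18.7%). The lowest adjusted p values in edgeR were 0.0596 for H2-M3 against B cells (0.68 on the log2 scale, SE 0.23) and 0.0758 for H2-D1 against T cells (0.52, SE 0.18). A difference in response between cell types was thus not shown for any member.

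The comparison of cell types was repeated in stressed mice. In CON mice Ly6C-high monocytes and T cells were level in H2-D1 (log2 fold change -0.00, adjusted p = 0.981), while in SUS mice Ly6C-high monocytes stood higher by 0.47 (adjusted p = 0.0196 in edgeR) and in RES mice by 0.47 (0.00128). For Tapbp, Ly6C-high monocytes stood above T cells by 0.19 in CON mice (0.105), by 0.66 in SUS mice (0.00828) and by 0.56 in RES mice (0.00148). Passing in stressed but not in CON mice is no test of a change between them. The interaction terms for SUS against CON mice passed for no member with all libraries in the fit, and none were fitted for RES mice. H2-K1 remained lower in Ly6C-high monocytes than in T cells, with log2 fold changes of -1.505 in unstressed, -1.07 in SUS and -1.10 in RES animals. Tap2 in the same comparison was at -1.21, -0.93 and -0.76. Nlrc5 over B cells was at 1.17 in CON, 0.59 in SUS (adjusted p = 0.0789) and 0.91 in RES animals, and Tap1, lower than in B and T cells of CON mice, did not pass against either in stressed mice (0.213 to 0.871).

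Companion genes of the pathway were read from lists, and those named at an adjusted p alone were picked after their values were seen. Proteasome genes supply the peptides. Over all 16955 genes tested in Ly6C-high monocytes of SUS against CON mice, 1488 passed the adjusted p as higher and 651 as lower. In Ly6C-high monocytes of SUS against CON mice, of 6 constitutive proteasome genes, 5 were higher at an adjusted p under 0.05, with a median log2 fold change of 0.72 and Psmb5 the 1 called at both conditions (1.02, adjusted p = 0.0138 in edgeR; 19.0 ± 4.47 CPM in CON and 39.1 ± 21.1 in SUS mice). Of 5 immunoproteasome and activator genes, 3 were higher (median 0.62), among them the catalytic subunits Psmb10 (1.10, adjusted p = 0.00737) and Psmb8 (0.87, 0.00969), and Psme1 (0.62, 0.0241). Psmb9, which shares a stretch with Tap1, was at 0.49 (0.218). Without SUS replicate 5, chosen after seeing the data, 3 and 2 of these genes passed, and Psmb10 stood at 0.66 (0.0164). In that fit 956 of 17456 genes passed as higher and 462 as lower. Without that library, 4 of the 5 immunoproteasome genes and 3 of the 6 constitutive ones passed in RES against CON mice, where 1078 of 17456 genes passed as higher and 763 as lower. With the red cell covariate none of either list passed, in a fit where 1 gene of 16955 passed as higher and 1 as lower, and the list medians were 0.25 and 0.07.

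Other lists were mixed. Of 7 loading and quality control genes 2 were higher, the chaperone Calr (0.69, adjusted p = 0.0326 in edgeR) and the translocon subunit Sec61a1 (0.55, 0.0325). Of 12 other class I and class I like heavy chains tested, of 20 listed, 2 were higher, H2-T22 (0.80, 0.0120) and Hfe (0.77, 0.0310), and H2-T24 was lower (-0.54, 0.0458). Among 20 regulators, beside 12.6% of all genes past the adjusted p, 1 was higher, Nfyc (0.52, 0.0353), and 2 lower, Jak2 (-0.49, 0.0270) and Creb1 (-0.68, 0.0308), while Irf1 (0.30, 0.414) did not pass. A list of 8 receptor genes was drawn up for class I, without a test that each binds it, and 5 were tested. Of these the inhibitory receptor Pirb was higher (0.52, 0.0146), and Klra2 (-0.66, 0.0436), Lilrb4a (-1.07, 0.0351) and Cd160 (-2.07, 0.0171) were lower.

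Interferon-stimulated genes that passed were lower. Of 16 listed, 5 were lower in SUS Ly6C-high monocytes and 0 higher, with a list median of -0.17. Over all 16955 genes of that fit, 651 passed as lower and 1488 as higher. Mx1 averaged 203 ± 29.7 CPM in CON and 98.0 ± 38.5 in SUS mice (log2 fold change -1.08, adjusted p = 0.00535 in edgeR), and Mx2 (-1.26, 0.00428), Ifit1 (-0.99, 0.00967), Ifit2 (-1.31, 0.00782) and Ifit3 (-1.27, 0.0356) were lower too. Without SUS replicate 5, in a fit where 462 of 17456 genes passed as lower and 956 as higher, 4 of the 16 passed. With the red cell covariate none did, the list median was -0.89 against -0.17 without it, and over all genes 1 passed as higher and 1 as lower. In RES against CON mice, where 4.97% of all genes passed, 0 interferon-stimulated genes and 2 constitutive proteasome genes did, Psma1 (0.53, 0.0262) and Psma7 (0.56, 0.0476). Single members of other lists that passed were Fcgrt (0.67, 0.0240), Nfyc (0.58, 0.0385) and, lower, Lilrb4a (-1.13, 0.0477). No gene of these lists passed in any stress comparison of the other 3 cell types, where few of all genes did. In SUS against CON Ly6C-low monocytes 31 of 19521 genes passed as higher and 16 as lower, and in RES against CON 3 and 2. In SUS against CON mice 1 of 17620 genes passed as higher in B cells, and 7 of 18860 as higher and 1 as lower in T cells. In the remaining comparisons of these cell types 0 genes passed.

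Across cell types of CON mice, the companions with the widest range of means are given as a description. The coreceptor chains Cd8a and Cd8b1 averaged 464 and 571 CPM in T cells and less than 1 CPM elsewhere, and Lilrb4a 243 CPM in Ly6C-high monocytes and 0.0448 in B cells. Hfe averaged 212 CPM in Ly6C-low monocytes and 0.293 in B cells, and H2-Q7 and H2-Q6 reached 389 CPM in T cells and 219 in B cells against 10.11 and 6.67 in Ly6C-high monocytes. Ciita, the class II counterpart of Nlrc5, averaged 567 CPM in B cells and 1.83 in T cells, where Nlrc5 was highest. Irf8 was lowest in T cells (6.24 CPM) and Ifngr1, an interferon gamma receptor chain, in B cells (92.6 CPM, against 620 in Ly6C-low monocytes). Mx1, Oasl2 and Ifit3 were highest in Ly6C-high monocytes, at 203, 196 and 79.2 CPM. Proteasome and loading genes varied less, with Psma7 at 64.4 to 164 CPM, Psmb6 at 26.2 to 54.0, Psmb5 at 10.11 to 20.5, Psme1 at 143 to 259, Psmb8 at 88.0 to 154, Psme2 at 36.9 to 60.9, Hspa5 at 195 to 462, Pdia3 at 162 to 342 and Tapbpl at 31.5 to 61.8.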

How the data were processed

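RNA of sorted cells was sequenced in 70 libraries, of which 68 were used. Paired-end reads were aligned by HISAT2 against mm10, and the authors deposited raw htseq-count counts per Ensembl gene, without normalization. The library kit marks strand, but the strand setting and the treatment of reads with several matches are not given in the sources used here. All columns of per-sample values were used, and the source conflict between blood and brain was not resolved.

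Symbols and positions came from GENCODE M21, which held 52403 of the 52636 identifiers. Tests ran in edgeR 4.0.16 (R 4.3.3). Other tools were DESeq2 1.42.0 and limma 3.58.1. One fit per cell type over its 3 stress groups, one over the 4 cell types of CON mice and one over all groups for interactions used filterByExpr, TMM and robust quasi-likelihood F tests, with Benjamini-Hochberg adjustment over all genes tested. Interaction terms were read at the adjusted p alone. The standard error was the absolute log2 fold change over the square root of F. Printed levels are CPM with TMM factors over the 68 libraries, ± SD, and logs for means used a pseudocount of 0.5 CPM. Levels per kilobase used the union exon length. The total count sets a counting precision finer than the spread between libraries: the least counted member library held 526 reads (H2-M3).

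Named were all 10 members, companion genes called in a stress comparison (up to 10), the 3 companions per list with the widest range of CON means, and 5 pattern neighbours each of H2-K1 and Nlrc5. Other companions were named after their values were seen. Members and lists were chosen with earlier results of these data known. Alternatives were DESeq2, DESeq2 size factors in edgeR, no filter, a table without mitochondrial, hemoglobin and 2 abundant noncoding genes, fits of only the groups compared, a red cell covariate, the left-out libraries kept, the same cell type comparisons in SUS and RES mice, and each library left out in turn. Scripts were tested on simulated data.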

Additional observations from a re-analysis of the deposited data

Results flagged for a closer look

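The members were tested in 120 groups of 4 to 6 libraries for 1 library far from the rest, a test that flags about 1 group in 20 by chance, and 9 groups had such a library. In Ly6C-high monocytes H2-K1 was at 764.3 CPM in CON replicate 4, above the other 5 at 608.5 to 655.9, and at 671.7 CPM in RES replicate 1, below 858.3 to 934.5. H2-T23 was at 498.6 CPM in SUS replicate 5, above 198.1 to 310.2. B2m was at 1585 CPM in RES replicate 2, above 969.3 to 1076, and Nlrc5 at 220.4 CPM in CON replicate 6, above 107.8 to 143.9. In Ly6C-low monocytes H2-T23 was at 177.7 CPM in CON replicate 4, above 120.4 to 127.6, and Nlrc5 at 306.1 CPM in SUS replicate 5, above 79.43 to 156.1. In lymphocytes B2m was at 905.6 CPM in SUS replicate 5 of B cells, above 584.9 to 597.4, and Tap2 at 73.71 CPM in RES replicate 1 of T cells, below 94.02 to 101.

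For some companion genes the SUS difference was not the same in Ly6C-high monocytes and lymphocytes, by an interaction term at an adjusted p under 0.05 in edgeR, and those that passed are given here after their values were seen. The lists held 20 other heavy chains, 7 loading, 5 immunoproteasome and activator, 6 constitutive proteasome, 20 regulator, 16 interferon-stimulated and 8 receptor genes. Only those past the filter on low counts were tested. Against B cells 16 companions passed (6.18% of all genes did). Among proteasome genes the difference on the log2 scale was 1.159 for Psmb5, 0.9596 for Psmb6, 0.8334 for Psmb7, 0.762 for Psma1, 0.7107 for Psma7, 0.845 for Psmb8 and 1.078 for Psmb10. The loading genes Calr and Sec61a1 stood at 0.8037 and 0.5988, and the kinase Jak2 at -0.6446. Interferon-stimulated genes were at -1.608 for Ifit2, -1.927 for Mx1 and -2.478 for Rsad2. The heavy chain H2-Q6, whose reads may be split with its near copies, was at -1.798. The receptor genes Cd160 and Klrd1 were at -2.671 and -5.816, and Klrd1 was at 0 counts in some libraries of both cell types, so that its size depends on the prior count. Against T cells 4 passed (3.22% of all genes), with 0.8473 for Psmb7, 0.7466 for Psma7, 1.128 for Psmb10 and -1.898 for Mx1. No such difference was shown for any of the 10 class I genes with all libraries in the fit. H2-M3, H2-D1 or Tapbp passed when some single libraries were left out. The red cell markers that differed between groups were not part of this model, and their share was not tested.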

How the results depend on the processing

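No paired analysis was possible because replicate numbers were given in accession order and no label ties libraries to a mouse. Over all alternatives, 5904 values of single members kept their side of the adjusted p, and turns of sign where neither value passed are among them. A further 41 lost and 79 gained the adjusted p, and 6 turned sign with 1 of both values past it. All 6 came from repeating the CON comparison of Ly6C-high monocytes in stressed mice: against B cells, H2-D1 was at 0.45 (log2) in RES mice, H2-T23 at 0.0104 in SUS and 0.11 in RES mice and Tapbp at 0.37 in RES mice, and against T cells H2-D1 was at 0.47 in SUS and 0.47 in RES mice. Counts of members called moved when the adjusted p stood alone, to 1 for SUS against CON mice in Ly6C-high monocytes and to 4, 8, 5, 7, 7 and 7 for the 6 cell type pairs in the order given above. Ly6C-high monocytes against B cells gave 0 in SUS and 0 in RES mice and 1 to 2 when leaving out each library, and Ly6C-low monocytes against T cells 0 in SUS mice and 0 to 1. Leaving out each library, the interaction counts were 0 to 2 against B cells (2 without Ly6C-high SUS replicates 2 or 6; H2-M3, H2-D1 or Tapbp) and 0 to 1 against T cells (H2-D1). The cause was not tested.

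For H2-D1 in SUS against CON Ly6C-high monocytes, DESeq2 gave 0.43 (adjusted p = 0.0295), no filter 0.49 (0.0359), DESeq2 size factors in edgeR 0.43 (0.0604) and only the 2 groups 0.48 (0.0573). H2-M3 passed in DESeq2 (0.54, 0.0486). H2-D1 between Ly6C-low monocytes and T cells was lost without mitochondrial, hemoglobin and abundant noncoding genes (0.24, 0.0588), and between the monocyte types it passed in 3 alternatives (0.0358 to 0.0454). The median of all genes was -0.05 under TMM and -0.16 in DESeq2. Differences within 2-fold are near the spread of 6 libraries a group, so members that did not pass may still differ.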
